A study of Homo sapiens with 36 samples.

Results

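TREM2, its signalling adaptor TYROBP and 8 genes of the lipid-associated macrophage state (APOE, APOC1, GPNMB, LPL, FABP4, FABP5, CD36 and PLIN2) were followed in leukaemia cells treated with the compound A9. These 10 genes, of 35490 genes with a summed value, were taken from a list that was selected on measured values, namely those of A9 against DMSO in both lines, TREM2 being higher with A9 in each. The A9 values of the 10 genes are therefore given as a description, with no test. The difference between the untreated lines was not the contrast used in that choice and was tested. The DMSO values entered both, so the p-values of that test are not independent of the choice. The 4 lists of related genes used below were also chosen with earlier results of these data known, so their counts are no independent test.

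The lines were MOLM-13 and MONO-MAC-6, established human acute myeloid leukaemia lines of monocytic kind, both labelled as wild type in genotype. Cells of each line received DMSO, the solvent control, or A9 for 72 h. A9 was given at 0.125 µM to MOLM-13 and at 0.25 µM to MONO-MAC-6, so that dose and line differ together. The labels call A9 a PROTAC, a molecule that brings a target protein to the cell's degradation machinery. The design text names IKK2 and NR4A1 as its targets, and the title names IKK1 and NR4A1. Each of the 4 groups held 9 libraries, and each label ends in a first and then a second number. The 3 libraries that share a first number were averaged, which gave 3 samples per group and 12 in all. The labels do not say that these samples came from separate cultures, so p-values measure the spread between these samples, which may be technical.

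TREM2 is a receptor of macrophages and microglia that binds lipids and lipoproteins, among them particles that carry APOE, and it signals through the membrane adaptor TYROBP (DAP12), whose phosphorylated tail recruits the kinase SYK. In adipose tissue, atherosclerotic plaque and brain, macrophages that take up much lipid express TREM2 together with apolipoproteins, GPNMB, lipoprotein lipase, fatty acid binding proteins, the scavenger receptor CD36 and the droplet coat protein perilipin 2. Many of these genes are known targets of the lipid-sensing receptors LXR (NR1H3, NR1H2) and PPARG, and GPNMB is a known target of the MiT factors (MITF, TFEB, TFE3).

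Values are TPM, an RNA level per unit of transcript length that adds up to an equal sum in each library. TPM carry no read counts, so depth is unknown here and no interval for counting error can be given. Between 86918 and 105082 transcripts per library were above 0. Sample 1 of MONO-MAC-6 with DMSO stood apart from the other 5 samples of that line, at 62.9 on a first principal component that held 71.8% of the variance, against -22.8 to 2.28. Several of the results that rest on it are given with and without it. In MOLM-13 the first component held 69.4% of the variance and did not separate the treatments. DMSO samples 1 to 3 were at -30.9, -6.75 and 14.7, and A9 samples 1 to 3 at -1.02, -13.8 and 37.7. A gene not called in that line is thus not shown to be unchanged. Differences are on the scale of log2(TPM + 1), which understates the change of low genes, and limma was run on genes that averaged 1 TPM or more in either group compared. In MOLM-13, 10 genes rose and 4 fell with A9 of 11602 tested, at an adjusted p under 0.05. In MONO-MAC-6, 323 rose and 110 fell of 12876, and the median gene was 0.16 higher. Scaling by the median ratio brought that median to 0.01 and gave 340 raised and 212 lowered genes, and removal of the trend on transcript length gave 628 and 537. Without DMSO sample 1 of MONO-MAC-6, 1870 genes were raised and 1320 lowered.

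The labelled cell type was checked on 10 myeloid markers. CD33, SPI1, LYZ, CD68, FCGR1A and CEBPA had a mean of 28.4 TPM or more in each of the 4 groups. CSF1R, the receptor of a macrophage growth factor, stayed between 0.51 and 1.17 TPM, and CD14 was at 0.30 and 0.34 TPM in MOLM-13. In MONO-MAC-6, CD14 was 3.14 TPM with DMSO and 13.04 TPM with A9, CD68 was 52.5 and 173 TPM, and lysozyme (LYZ) was 3413 and 7681 TPM. The summed level of the 10 markers ran from 3828 to 4330 TPM with DMSO and from 8564 to 8877 TPM with A9 in that line, and from 716 to 737 and 937 to 1017 TPM in MOLM-13. Most of the sum in MONO-MAC-6 was LYZ, which in MOLM-13 was 133 TPM with DMSO and 327 TPM with A9. Of the other 2 markers, PTPRC (CD45) was 23.04 and 12.4 TPM in MOLM-13 and 3.02 and 3.69 TPM in MONO-MAC-6, and ITGAM (CD11b) was 6.73 and 4.86 TPM and 2.98 and 3.01 TPM. The part of these marker values in the values of the 10 genes was not tested, and in bulk RNA a larger share of cells of a type and more RNA per cell cannot be told apart. Other cell types use the same lipid genes. Of 5 adipocyte markers, ADIPOQ, LEP, PLIN1 and CIDEA had group means of at most 0.08 TPM, while CIDEC, a droplet protein of fat cells, was 0.03 TPM with DMSO and 2.14 TPM with A9 in MONO-MAC-6. The platelet genes PF4 and PPBP, the red cell gene HBB, the lymphoid genes CD3E and MS4A1 and the osteoclast gene CALCR were listed at 0 in every sample.

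RefSeq start regions (GRCh38.p14, 250 bases before to 50 after a start) were found for 7 of the 10 genes, with 14 starts, and not for LPL, FABP4 and FABP5. They are shown for the receptor, its adaptor and the 2 other genes that hold a match. All 10 genes had higher values with A9 in MONO-MAC-6, so those values do not single out these 4. Sequences run 5′ to 3′ on the strand of the gene, and capitals mark a match to a searched motif on either strand. The regions are chr6:41163067-41163366 for TREM2 (minus strand), chr19:35908246-35908545 for TYROBP (minus strand), chr7:23246525-23246824 for GPNMB (plus strand) and chr9:19127443-19127742 for PLIN2 (minus strand).
TREM2: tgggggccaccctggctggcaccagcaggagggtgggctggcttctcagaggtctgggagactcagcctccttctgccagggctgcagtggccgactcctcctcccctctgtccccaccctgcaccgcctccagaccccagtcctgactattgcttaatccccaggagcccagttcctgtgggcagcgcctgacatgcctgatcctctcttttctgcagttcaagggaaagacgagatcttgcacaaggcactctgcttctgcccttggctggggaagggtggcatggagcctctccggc
TYROBP: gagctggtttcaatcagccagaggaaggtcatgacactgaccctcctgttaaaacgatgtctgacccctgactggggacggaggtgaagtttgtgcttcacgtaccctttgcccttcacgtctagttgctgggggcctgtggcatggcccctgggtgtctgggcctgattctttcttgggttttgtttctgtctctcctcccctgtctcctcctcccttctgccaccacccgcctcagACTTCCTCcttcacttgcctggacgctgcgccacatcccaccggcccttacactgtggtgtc
GPNMB: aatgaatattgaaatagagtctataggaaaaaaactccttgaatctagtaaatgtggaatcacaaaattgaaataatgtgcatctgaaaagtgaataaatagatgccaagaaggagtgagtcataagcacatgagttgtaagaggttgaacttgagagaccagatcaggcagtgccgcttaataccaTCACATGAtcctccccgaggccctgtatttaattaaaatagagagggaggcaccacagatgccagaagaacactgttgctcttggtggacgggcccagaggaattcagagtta
PLIN2: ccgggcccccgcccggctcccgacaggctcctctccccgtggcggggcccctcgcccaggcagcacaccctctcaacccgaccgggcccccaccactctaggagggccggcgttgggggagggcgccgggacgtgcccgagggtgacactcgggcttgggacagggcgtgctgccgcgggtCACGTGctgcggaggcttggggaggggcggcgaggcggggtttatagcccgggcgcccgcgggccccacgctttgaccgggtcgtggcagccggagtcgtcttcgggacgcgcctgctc
The 7 motifs searched were a PU.1 site (GAGGAAGT), an E-box (CACGTG), an M-box of MiT factors (TCATGTGA), the NR4A site NBRE (AAAGGTCA), the nuclear receptor sites DR1 and DR4 (the hexamer AGGTCA repeated after 1 or 4 bases, which overlaps the NBRE letters), and a kappa-B site. TYROBP held the PU.1 site from 12 to 5 bases before its start, on the strand opposite to the gene. This motif was in 2.59% of all 35116 start regions. GPNMB held the M-box, also on the opposite strand, from 63 to 56 bases before its start, and 1.0% of all regions held it. PLIN2 held the E-box from 69 to 64 bases before its start, as 7.26% of all regions did. No other match was found in the 14 regions, where the shares over all regions were 1.22% for NBRE, 0.0228% for DR1, 0.0199% for DR4 and 11.3% for kappa-B. A match is a string of letters and shows no binding.

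TREM2 was low in untreated cells and higher in every A9 sample of both lines. TREM2 (ENSG00000095970, chromosome 6, 41158506 to 41163186, minus strand, GRCh38) measured 0.504, 0.540 and 0.589 TPM in the MOLM-13 samples with DMSO and 2.60, 3.57 and 2.72 TPM in those with A9. In MONO-MAC-6 it measured 2.15, 1.96 and 2.27 TPM with DMSO and 17.9, 21.5 and 19.4 TPM with A9. The groups did not overlap in either line, and the MOLM-13 samples with A9 lay just above untreated MONO-MAC-6. The A9 mean was 5.44 times the DMSO mean in the first line and 9.24 times in the second, and the differences on the log2(TPM + 1) scale were 1.35 ± 0.13 and 2.72 ± 0.12 (SE of the limma fit, n = 3 against 3). In MOLM-13 the gene reached the minimum of 1 TPM with A9 alone. Within each line the groups did not overlap among single libraries either, while MOLM-13 libraries with A9 overlapped those of untreated MONO-MAC-6. In MOLM-13 the 9 libraries with DMSO lay between 0.369 and 0.732 TPM and the 9 with A9 between 2.13 and 4.44 TPM, and in MONO-MAC-6 these ranges were 1.85 to 2.46 and 16.8 to 23.6 TPM.

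The adaptor TYROBP (ENSG00000011600, chromosome 19, 35904401 to 35908295, minus strand) was more abundant than its receptor in every sample. It measured 32.5, 37.3 and 37.6 TPM with DMSO and 40.6, 42.6 and 44.0 TPM with A9 in MOLM-13. In MONO-MAC-6 the samples with DMSO measured 10.8, 8.73 and 8.82 TPM and those with A9 40.4, 56.5 and 48.4 TPM. With A9, TYROBP of MONO-MAC-6 overlapped that of MOLM-13, while with DMSO it was lower in every sample. The log2 differences were 0.24 ± 0.09 (SE) in the first line and 2.24 ± 0.16 (SE) in the second. The ratio of TYROBP to TREM2 means was therefore larger in MOLM-13 than in MONO-MAC-6 under both treatments.

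**Figure D1:**
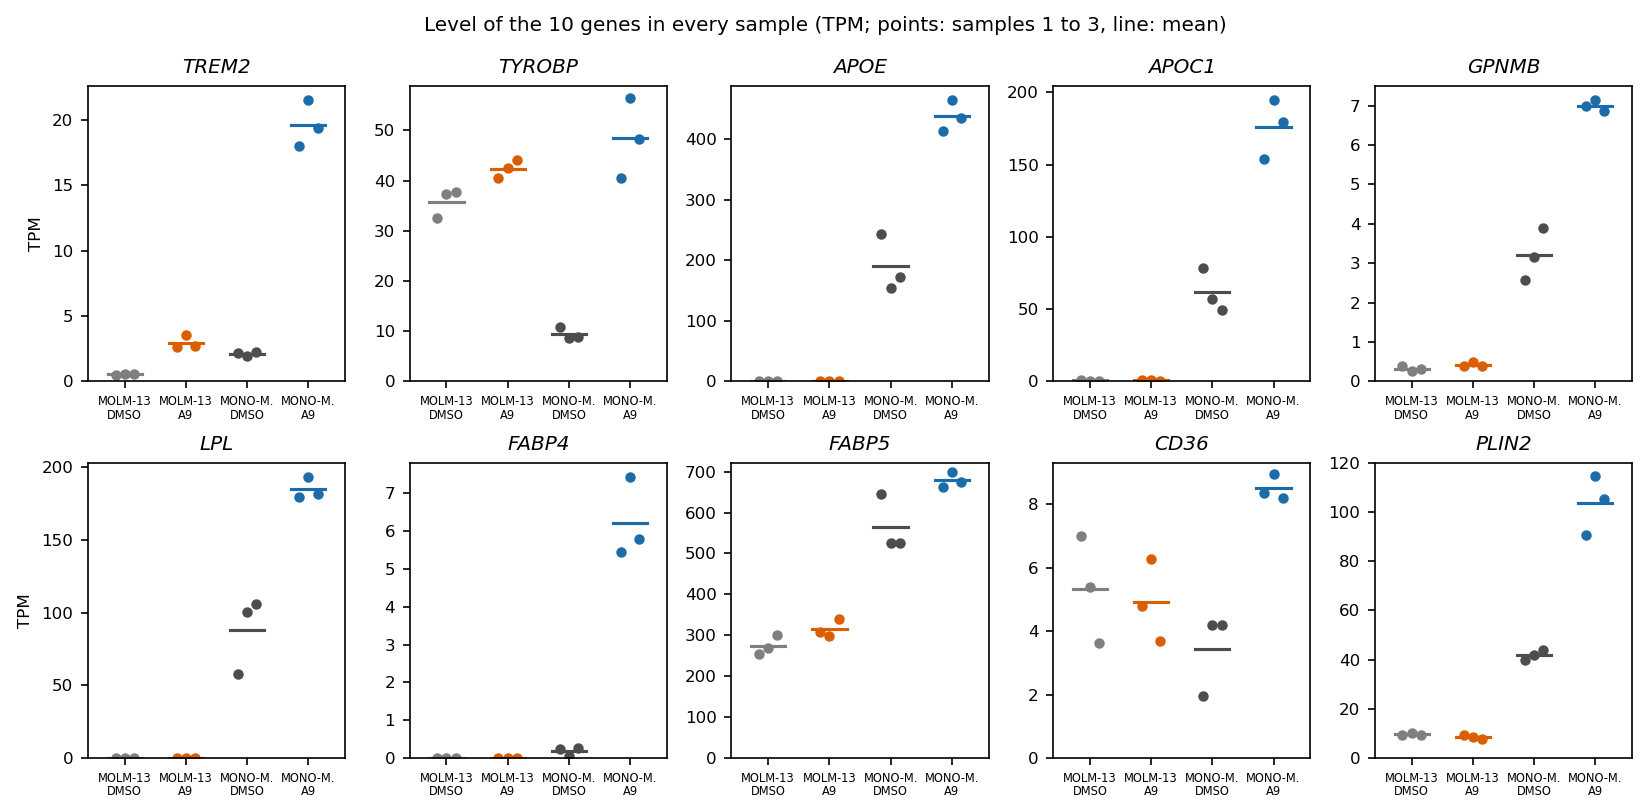
TPM of each of the 10 genes in MOLM-13 and MONO-MAC-6 (MONO-M.) with DMSO or A9, with points for samples 1 to 3 of a group and a line for their mean, on a linear axis from 0 that differs between panels. All 10 genes are higher in the 3 A9 samples of MONO-MAC-6 than in its DMSO samples, and APOE, APOC1, GPNMB, LPL and FABP4 stay near 0 in MOLM-13.

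The apolipoproteins were expressed in MONO-MAC-6 and nearly absent from MOLM-13. APOE (ENSG00000130203, chromosome 19, 44905754 to 44909393), the lipid carrier that is a ligand of TREM2, measured 244, 155 and 172 TPM with DMSO and 413, 465 and 435 TPM with A9 in MONO-MAC-6. APOC1 (ENSG00000130208, chromosome 19, 44914247 to 44919349), a small apolipoprotein whose gene lies 4854 bases from APOE, measured 78.8, 57.2 and 49.4 TPM with DMSO and 154, 195 and 179 TPM with A9. In both genes DMSO sample 1, the sample that stood apart, was the highest of its group and still below each A9 sample. The log2 differences were 1.22 ± 0.17 for APOE and 1.51 ± 0.18 for APOC1 (SE), and without DMSO sample 1 they were 1.42 and 1.70. In MOLM-13 the 6 samples ranged from 0.114 to 0.314 TPM for APOE and from 0.299 to 1.04 TPM for APOC1, and the A9 and DMSO samples overlapped.

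GPNMB (ENSG00000136235, chromosome 7, 23235967 to 23275108), a transmembrane glycoprotein of lysosomes and melanosomes, measured 2.57, 3.16 and 3.88 TPM with DMSO and 6.98, 7.15 and 6.87 TPM with A9 in MONO-MAC-6. The A9 samples lay close together and above the DMSO samples, with a log2 difference of 0.94 ± 0.15 (SE), and of 0.83 without DMSO sample 1. In MOLM-13, GPNMB stayed under 0.5 TPM in every sample, from 0.254 to 0.489 TPM.

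Lipoprotein lipase (LPL, ENSG00000175445, chromosome 8, 19901717 to 19967259), which frees fatty acids from triglyceride-rich lipoproteins, measured 57.5, 101 and 106 TPM with DMSO and 180, 194 and 182 TPM with A9 in MONO-MAC-6. DMSO sample 1 was the lowest of its group here, and the log2 difference was 1.11 ± 0.23 (SE) with it and 0.84 without it. In MOLM-13 no sample was above 0.00778 TPM. The scavenger receptor CD36 (ENSG00000135218, chromosome 7, 80369575 to 80679277), which takes up fatty acids and oxidized lipoproteins, had the most similar level in the untreated lines among the 9 genes tested there. It measured 1.95, 4.18 and 4.18 TPM with DMSO and 8.37, 8.97 and 8.19 TPM with A9 in MONO-MAC-6. Its log2 difference there was 1.15 ± 0.24 (SE), and 0.88 without DMSO sample 1. In MOLM-13, CD36 measured 7.01, 5.4 and 3.64 TPM with DMSO and 4.81, 6.29 and 3.70 TPM with A9, and the groups overlapped. The log2 difference was -0.08 there, and its sign changed to 0.10 without DMSO sample 1 and to 0.07 without A9 sample 3.

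The fatty acid binding proteins carry fatty acids inside the cell, and the pair differed widely in level. FABP5 (ENSG00000164687, chromosome 8, 81280363 to 81284777) was the most abundant of the 10 genes in every group. It measured 645, 526 and 525 TPM with DMSO and 663, 700 and 675 TPM with A9 in MONO-MAC-6. DMSO sample 1 nearly reached the A9 samples, and the log2 difference of 0.27 ± 0.10 (SE) was 0.37 without that sample and 0.09 with median-ratio scaling, which removes the shift of the median gene. In MOLM-13, FABP5 measured 255, 268 and 300 TPM with DMSO and 308, 297 and 339 TPM with A9, with 1 A9 sample inside the DMSO range. The 13 FABP5 pseudogenes, whose sequence is close to FABP5, summed to at most 0.500 TPM in any sample.

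FABP4 (ENSG00000170323, chromosome 8, 81478419 to 81483263), known from fat cells and macrophages, measured 0.232, 0.0605 and 0.259 TPM with DMSO and 5.44, 7.45 and 5.80 TPM with A9 in MONO-MAC-6. It reached the minimum of 1 TPM with A9 alone. Its log2 difference was 2.60 ± 0.15 (SE), and 4.55 with a pseudocount of 0.1 in place of 1, so its size depends on that choice. In MOLM-13, FABP4 was listed at 0 in all 6 samples.

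Perilipin 2 (PLIN2, ENSG00000147872, chromosome 9, 19108375 to 19149290), which coats lipid droplets, measured 39.9, 41.7 and 43.9 TPM with DMSO and 90.9, 115 and 105 TPM with A9 in MONO-MAC-6. The log2 difference was 1.28 ± 0.11 (SE). In MOLM-13 the order was the opposite, with 9.31, 10.2 and 9.39 TPM with DMSO and 9.15, 8.53 and 7.74 TPM with A9. Each A9 sample was below each DMSO sample, by -0.17 ± 0.11 on the log2 scale (SE).

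Counted over the 10 genes, all 3 A9 samples of MONO-MAC-6 were above all 3 DMSO samples in 10 of 10, and the same was found without DMSO sample 1. This order was found in 27.2% of all genes tested in that line. In MOLM-13, 5 of the 10 genes passed the minimum of 1 TPM, and of these TREM2 and TYROBP had all A9 samples higher, PLIN2 had all lower, and FABP5 and CD36 overlapped. All A9 samples were higher in 8.58% of genes tested in MOLM-13. Of these 11602 genes, 1741 had no overlap between the groups, 996 of them higher with A9 and the others lower. Since the A9 values took part in choosing the list, these counts describe it. The differences in MONO-MAC-6 ran from 0.27 for FABP5 to 2.72 for TREM2 on the log2(TPM + 1) scale with a median of 1.25, beside 0.16 for all genes tested.

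**Figure D2:**
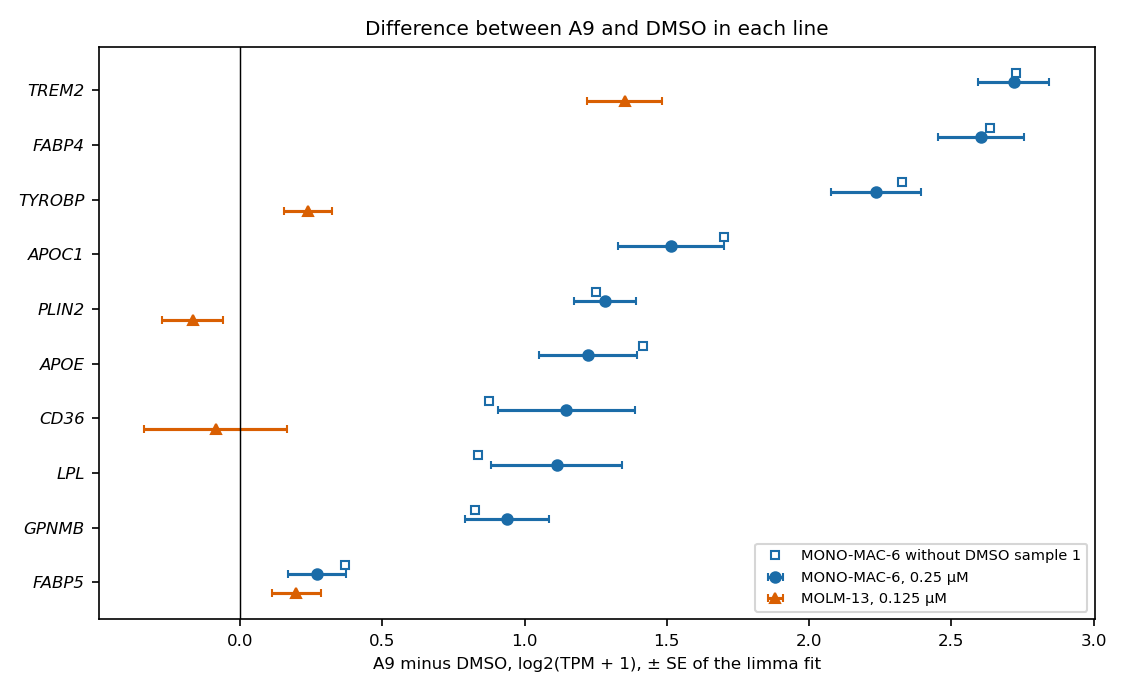
Difference between A9 and DMSO on the log2(TPM + 1) scale with the SE of the limma fit, in MONO-MAC-6 (circles), in MONO-MAC-6 without DMSO sample 1 (open squares) and in MOLM-13 (triangles, for the 5 genes above the minimum of 1 TPM). TREM2 has the highest value in both lines with this pseudocount of 1, at 2.72 and 1.35, while with 0.1 FABP4 is higher in MONO-MAC-6, at 4.55 beside 3.15. PLIN2 is at 1.28 in MONO-MAC-6 and -0.17 in MOLM-13.

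TREM2 was split over 3 annotated transcripts. TREM2-202 (1044 bases, 5 exons, a coding sequence of 690 bases) held most of it. TREM2-201 (860 bases) skips exon 4 of TREM2-202, 194 bases at chromosome 6, 41158873 to 41159066, the exon known to code for the membrane-spanning segment, so that this form is known to give a soluble protein. In MOLM-13, TREM2-202 held 67.5% ± 6.5 with DMSO and 70.6% ± 4.3 with A9, and TREM2-201 28.7% ± 6.2 and 24.8% ± 6.0 (SD, n = 3). In MONO-MAC-6 the shares were 80.8% ± 1.7 and 82.3% ± 0.71 for TREM2-202, and 15.01% ± 0.88 and 15.3% ± 1.4 for TREM2-201. Between treatments, the mean shares of both transcripts differed by less than the SD of the larger spread in each line, so the higher TREM2 level with A9 was seen in both forms. The level of TREM2-201 was 0.319 ± 0.0267 TPM with DMSO and 2.98 ± 0.0378 TPM with A9 in MONO-MAC-6 (SD, n = 3). Shares rest on the authors' assignment of reads that fit several transcripts.

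**Figure D3:**
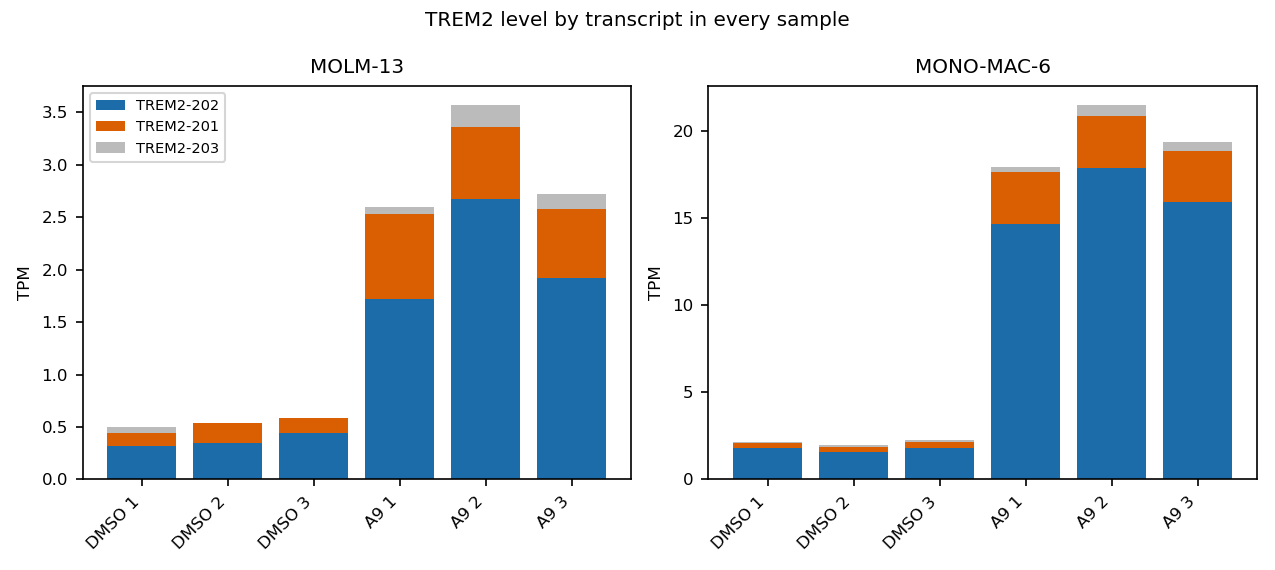
TREM2 level in TPM in every sample, stacked by transcript (TREM2-202, TREM2-201 without exon 4, and TREM2-203), for MOLM-13 on the left and MONO-MAC-6 on the right, on axes of different height. TREM2-202 is the tallest part of every bar, and both main transcripts are higher in the A9 samples.

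The split of LPL over its transcripts differed mainly in DMSO sample 1 of MONO-MAC-6, the sample that stood apart. The coding transcript LPL-208 (3565 bases) held 82.4% and 85.2% of LPL in DMSO samples 2 and 3 of MONO-MAC-6 and 86.7% to 87.8% in its A9 samples. In DMSO sample 1 it held 39.4%, and LPL-209 (2254 bases), annotated as a target of nonsense-mediated decay, held 59.5%, beside 12.3% and 2.43% in the other DMSO samples. LPL-209 has 4 exons and lacks 6 of the 10 exons of LPL-208, exon 1 among them. Whether the split in that sample is technical was not tested. The mean level of LPL-208 alone was 65.2 ± 37.0 TPM with DMSO and 161 ± 7.49 TPM with A9 (SD, n = 3), a log2 difference of 1.52. DMSO sample 1 had 22.6 TPM of it and samples 2 and 3 had 82.9 and 89.99 TPM, and without sample 1, a setting chosen after seeing the data, the difference was 0.89.

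With DMSO, the lines differed in most of the 10 genes. APOE, LPL, APOC1, PLIN2, GPNMB, FABP5 and TREM2 were higher in MONO-MAC-6 and TYROBP was lower. Of the 10 genes 9 reached the minimum level for the test, and 8 passed an adjusted p of 0.05 (limma, Benjamini-Hochberg over all genes), 7 higher and 1 lower. Of all 12928 genes tested, 48.8% passed, 3924 higher and 2384 lower in MONO-MAC-6, or 3662 and 3360 with median-ratio scaling, so that a difference between these lines was common. Without DMSO sample 1 of MONO-MAC-6, 61.6% of all genes passed. The median over the 9 genes was 1.66, beside 0.12 over all genes. The DMSO values also took part in choosing the list, so these counts are not an independent test. TREM2, APOE, APOC1, GPNMB and LPL averaged under 1 TPM in MOLM-13 and reached the minimum through MONO-MAC-6 alone. Their direction was thus set by the filter, and the counts and the median describe the list. The same holds for the direction of other genes named below that averaged under 1 TPM in untreated MOLM-13. Levels come from a separate table for each line, and line, table and anything else that differed between them cannot be told apart.

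APOE had the largest difference with the pseudocount of 1, and LPL with one of 0.1 (9.66, beside 9.32 for APOE). APOE went from 0.20 ± 0.0843 TPM in MOLM-13 to 190 ± 47.4 TPM in MONO-MAC-6 (SD, n = 3), a log2 difference of 7.29 ± 0.19 (SE, adjusted p from limma 2.92e-06). LPL was 0.00475 ± 0.00416 and 87.9 ± 26.5 TPM (adjusted p from limma 1e-05). APOC1 was 0.637 ± 0.313 and 61.8 ± 15.2 TPM (adjusted p from limma 1.44e-05). These are the genes of secreted lipid carriers and of the lipase that acts on them, and none of the 3 overlapped between the lines.

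Smaller differences were found for the other 5 genes that passed. PLIN2 was 9.62 ± 0.471 TPM in MOLM-13 and 41.8 ± 2.03 TPM in MONO-MAC-6, 4.35 times as high (adjusted p from limma 2.32e-05). GPNMB was 0.317 ± 0.0713 and 3.21 ± 0.656 TPM (adjusted p from limma 1.87e-04). FABP5 was 274 ± 23.2 and 565 ± 69.4 TPM, 2.06 times as high (adjusted p from limma 6.16e-04). TREM2 itself was 0.544 ± 0.0425 and 2.12 ± 0.156 TPM (adjusted p from limma 3.13e-04). Its adaptor went the other way, since TYROBP was 35.8 ± 2.85 TPM in MOLM-13 and 9.44 ± 1.16 TPM in MONO-MAC-6, a log2 difference of -1.82 ± 0.13 (SE, adjusted p from limma 8.32e-05). CD36, at 5.35 ± 1.69 and 3.44 ± 1.29 TPM, did not pass. Its log2 difference was -0.53, with an interval from -1.27 to 0.21 (adjusted p from limma 0.202), and it passed with median-ratio scaling (0.0363), after removal of the length trend (0.0278) and with libraries averaged by the second number (0.0142).

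**Figure D4:**
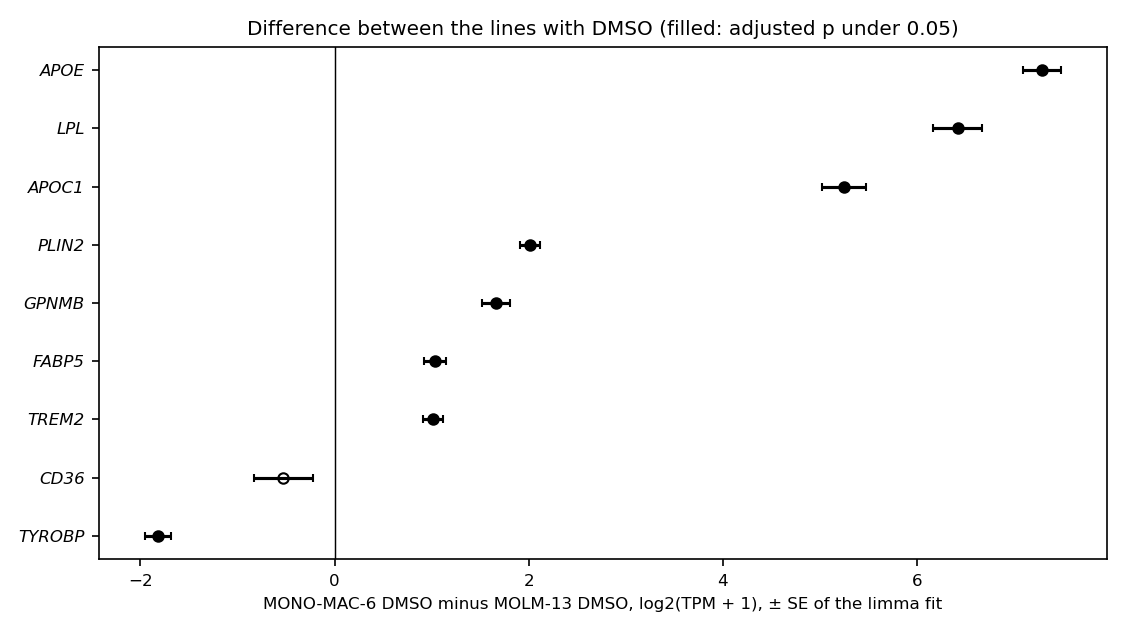
Difference between MONO-MAC-6 and MOLM-13 with DMSO on the log2(TPM + 1) scale with the SE of the limma fit, for the 9 genes tested. Filled points passed an adjusted p of 0.05, from TYROBP at -1.82 to APOE at 7.29, and CD36 at -0.53 did not.

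In descending order of level, untreated MONO-MAC-6 had FABP5, APOE, LPL, APOC1, PLIN2, TYROBP, CD36, GPNMB, TREM2 and FABP4. Neighbours in this order that overlapped between samples were LPL and APOC1, and CD36 and GPNMB. CD36 and TREM2 overlapped as well. In untreated MOLM-13 the order was FABP5, TYROBP, PLIN2, CD36, APOC1, TREM2, GPNMB, APOE, LPL and FABP4, and neighbours that overlapped were APOC1 and TREM2, GPNMB and APOE, and LPL and FABP4.

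Of the other genes around TREM2 and TYROBP, 1 rose with A9 in each line, and it was MS4A6A in both. The list held 26 receptors, adaptors, kinases and regulators, of which MOLM-13 had 18 and MONO-MAC-6 had 19 that could be tested. Over all genes, the shares that passed were 0.121% (MOLM-13) and 3.36% (MONO-MAC-6). MS4A6A, a membrane protein from the gene cluster that is linked to soluble TREM2, was 29.7 ± 1.5 TPM with DMSO and 55.0 ± 2.45 TPM with A9 in MOLM-13, a log2 difference of 0.87 ± 0.08 (SE, adjusted p from limma 0.0259). It kept the call without A9 sample 3 and lost it in the other 5 fits that left out a sample, with adjusted p from 0.0419 to 0.224 over the 6. In MONO-MAC-6 it was 5.04 ± 0.919 and 28.04 ± 3.12 TPM, a log2 difference of 2.27 ± 0.16 (SE, adjusted p from limma 0.00207). The list's median difference was -0.04 and 0.33 in the 2 lines, beside -0.05 and 0.16 over all genes. Without DMSO sample 1 of MONO-MAC-6, 4 genes of the list were higher and 2 lower, where 24.8% of all genes passed, and its median was 0.08, beside 0.03 over all genes.

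At baseline, 4 of 18 genes of this list were higher and 5 lower in MONO-MAC-6, a share near the 48.8% of all genes that differed between the lines, so the list does not stand out and its named genes are given as single values. Without DMSO sample 1 of MONO-MAC-6, 6 were higher and 6 lower, where 61.6% of all genes passed. CARD9, an adaptor downstream of SYK, was 1.80 ± 0.409 TPM in MOLM-13 and 33.1 ± 2.33 TPM in MONO-MAC-6 (adjusted p from limma 1.18e-05). The adaptors LAT2 and GRB2 were higher by 0.85 and 0.63 on the log2 scale. MS4A6A was lower by -2.36 (adjusted p from limma 5.42e-05), BTK by -1.42 and PLCG2, the phospholipase that acts below SYK, by -1.13. GRB2 kept its call without DMSO sample 1 of MONO-MAC-6 alone, and BTK without DMSO sample 1 or sample 3 of that line.

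Of 28 further genes of lipid-associated macrophages, 22 were tested in MONO-MAC-6, and 7 rose and 1 fell with A9. Over all genes tested in that line, 3.36% passed. This list was chosen with earlier results of these data known, so its counts describe it and are not an independent test. Clusterin (CLU), a secreted chaperone and apolipoprotein, was 32.2 ± 2.75 TPM with DMSO and 458 ± 62.9 TPM with A9, a log2 difference of 3.78 ± 0.12 (SE, adjusted p from limma 4.03e-04). The lysosomal protease CTSD was 154 ± 8.25 and 657 ± 80.8 TPM (adjusted p from limma 0.00134). CYP27A1, the enzyme that makes 27-hydroxycholesterol, was 13.1 ± 1.13 and 56.5 ± 6.69 TPM (adjusted p from limma 0.00136). CHI3L1, a secreted chitinase-like protein, was 167 ± 26.9 and 518 ± 25.2 TPM (adjusted p from limma 0.0028). The other 3 that rose, named after their values were seen, were ACP5, LGALS3 and CTSZ, by 1.35, 1.0 and 0.62 on the log2 scale. ACP5, at 0.0234 TPM with DMSO and 1.62 TPM with A9, reached the minimum of 1 TPM with A9 alone. CST7, a cystatin that inhibits lysosomal proteases, fell by 0.81 on the log2 scale, from 214 ± 13.1 to 121 ± 2.53 TPM (adjusted p from limma 0.00463), and it lost the call without A9 sample 2 (0.0556) or sample 3 (0.0561). SPP1, a defining gene of some lipid-associated macrophages, was listed at 0 with DMSO and at 0.329 TPM with A9 and was not tested.

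The median of this list was 0.50 in MONO-MAC-6, beside 0.16 over all genes, and without DMSO sample 1 it was 0.35 with 15 genes higher and 2 lower, where 24.8% of all genes passed. In MOLM-13, 17 genes of the list were tested, with 0 past the threshold of limma and 6 at an unadjusted p under 0.05. The shares over all genes tested in MOLM-13 were 0.121% and 7.89%. The 3 most abundant there were CAPG, CD63 and ANXA5, with differences of -0.10, 0.33 and 0.10 and adjusted p from limma of 0.775, 0.397 and 0.754. At baseline, 15 of 21 genes tested were higher in MONO-MAC-6 and 1 was lower, beside 48.8% of all genes that passed. CLU was higher by 4.91, CYP27A1 by 3.29 and the protease CTSL by 3.08 on the log2 scale. The protease CTSB was the 1 lower gene, at 82.4 ± 4.66 TPM in MOLM-13 and 1.11 ± 0.115 TPM in MONO-MAC-6 (adjusted p from limma 1.66e-06).

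Among 36 genes of lipid uptake, storage, lipolysis and efflux, 31 were tested in MONO-MAC-6, and 3 rose and 1 fell with A9. This stands beside 3.36% of all genes tested that passed. OLR1 (LOX-1), a receptor for oxidized LDL, was 0.636 ± 0.101 TPM with DMSO and 10.95 ± 3.39 TPM with A9 (adjusted p from limma 0.00256). It reached the minimum of 1 TPM with A9 alone. PLIN5, a droplet coat protein, was 16.6 ± 0.384 and 43.7 ± 4.74 TPM (adjusted p from limma 0.0028). LRP1, a receptor that takes up APOE-bearing particles, was 6.32 ± 1.13 and 13.3 ± 1.18 TPM (adjusted p from limma 0.0278), and it kept the call without DMSO sample 1 or DMSO sample 3 and lost it without each of the other 4 samples and with the length trend removed (0.101). G0S2, an inhibitor of the lipase ATGL, fell from 37.6 ± 1.11 to 25.5 ± 0.525 TPM (adjusted p from limma 0.0263), and it kept the call without DMSO sample 1 alone. Scaling by the median ratio gave 4 higher and 4 lower genes in this list, where 4.29% of all genes passed. Leaving out DMSO sample 1 gave 13 and 5, where 24.8% of all genes passed. The list's median of 0.19 was near the 0.16 of all genes.

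In MOLM-13, 24 genes of this list were tested, with 0 past the threshold of limma and 4 at an unadjusted p under 0.05. The shares over all genes tested in that line were 0.121% and 7.89%. The list's 3 most abundant genes were PLIN3, APOC2 and PNPLA2, with differences of -0.15, -0.05 and 0.48 and adjusted p from limma of 0.785, 0.891 and 0.146. At baseline, 16 of 30 genes tested were higher in MONO-MAC-6 and 3 lower, beside 48.8% of all genes that passed. G0S2 was listed at 0 in every untreated MOLM-13 sample and was at 37.6 ± 1.11 TPM in MONO-MAC-6 (adjusted p from limma 1.66e-06). PLIN5 was higher by 3.19 and APOL1 by 2.96 on the log2 scale, and CPT1A, DGAT1 and SLC27A1 differed by -1.14, -0.82 and -0.72.

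**Figure D5:**
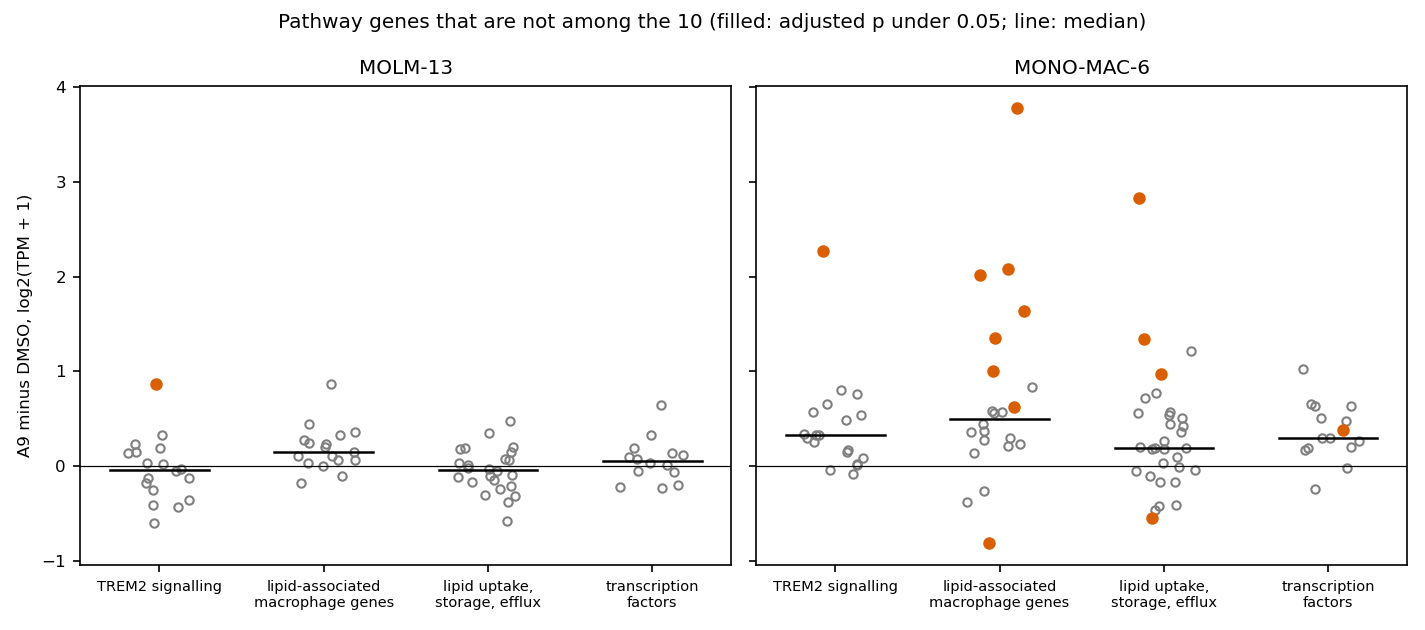
Difference between A9 and DMSO on the log2(TPM + 1) scale for the tested genes of the 4 pathway lists, which exclude the 10 genes, in MOLM-13 (left) and MONO-MAC-6 (right), with a line at each list's median. Filled points passed an adjusted p of 0.05, namely 1 gene on the left and 14 on the right, where CLU is highest at 3.78.

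Of 17 transcription factors known to act on some of the 10 genes, 15 were tested between the untreated lines, and 7 were higher and 2 lower in MONO-MAC-6, beside 48.8% of all genes that passed. PPARG was at 0.00316 ± 0.00547 TPM in untreated MOLM-13 and at 34.6 ± 3.76 TPM in untreated MONO-MAC-6 (adjusted p from limma 2.19e-06). NR1H3, the LXR alpha receptor, was 3.65 ± 0.238 and 17.2 ± 1.27 TPM (adjusted p from limma 5.10e-05). TFEC was higher by 1.10, a call that was kept without DMSO sample 1 of either line and lost without each of the other 4 samples. TFEB and RXRA, the partner of LXR and PPAR receptors, were lower by -1.92 and -1.54.

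With A9, 1 of 15 factors tested passed in MONO-MAC-6, beside 3.36% of all genes tested. SPI1 (PU.1), the master factor of myeloid cells, was 262 ± 13.4 TPM with DMSO and 340 ± 4.09 TPM with A9, a log2 difference of 0.38 ± 0.07 (SE, adjusted p from limma 0.0452). The call was lost with median-ratio scaling (0.469) and with the length trend removed (0.0605), and in the fits that left out 1 sample it was kept without DMSO sample 1 alone. Without that sample 8 of the 15 factors passed, all higher, while 24.8% of all genes tested passed in that fit. In MOLM-13, 0 of 14 factors passed the threshold of limma and 1 had an unadjusted p under 0.05. The shares over all genes tested in that line were 0.121% and 7.89%. The most abundant factors were CEBPA, IRF8 and SPI1, with differences of 0.11, 0.33 and 0.14 and adjusted p from limma of 0.728, 0.691 and 0.729. With the length trend removed, 2 factors passed in MOLM-13, both higher, where 1.38% of all genes passed. IRF8 was 1 of them, with an adjusted p from limma of 0.0386.

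The genes whose pattern over the 12 samples was most like that of TREM2 were sought among 10063 other genes that averaged 5 TPM or more in some group, after each line was centred on its own mean. They were MSRB1, NIT2, IQCD, ANKRD30BL and GRINA, with a Pearson r of 0.993, 0.991, 0.987, 0.987 and 0.984. All 12 samples share the contrast of A9 with DMSO, which sets much of this value. Of the other 9 genes of the list, TYROBP had the highest r with TREM2, 0.930, and CD36 the lowest, 0.713. MSRB1, a methionine sulfoxide reductase, was 17.0 TPM with DMSO and 22.6 TPM with A9 in MOLM-13, and 36.7 and 67.2 TPM in MONO-MAC-6.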

How the data were processed

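RNA was measured by bulk sequencing of poly(A) RNA in 36 libraries. Per the labels' protocols, samples had a RIN of at least 8 and were sequenced with paired reads of 150 bases. The deposited values are TPM per Ensembl transcript, and the submitters' processing notes name kallisto, limma and GRCh38, with no versions. Each library summed to 1000000. Of 207175 transcripts, 162561 (78.5%) matched GENCODE 29 and held 89.9% to 91.4% of TPM. These were summed to 35490 genes, and the rest were not used here. Positions of genes and transcripts come from GENCODE 29.

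The 3 libraries of a first number were averaged, since their SD on the log2 scale (median 0.0835 over genes) was below that within second numbers (0.206). Models were fitted to log2(TPM + 1) with limma 3.58.1 in R 4.3.3 (lmFit, eBayes with trend and robust), for genes averaging 1 TPM or more in either group compared, within each line or between the untreated lines. Two-sided p-values were corrected by the Benjamini-Hochberg method across every gene tested, and the threshold was 0.05. The count test named in the design did not apply to TPM. The fit was tested on simulated data. Python 3.11.15 was used for tables (pandas 2.3.3) and for plots (matplotlib 3.10.9).

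The 10 genes, the 4 pathway lists and the 7 marker lists were chosen with earlier results of these data known. Pathway genes were named by rule, as up to 4 highest and 4 lowest differences past the threshold per list and line (3 and 3 at baseline), or the 3 most abundant genes where none passed. Motifs and neighbouring genes were chosen after the data were seen. Alternatives were a pseudocount of 0.1, no filter, median-ratio scaling, removal of the trend on transcript length by lowess, averaging by the second number, a replicate block, the highest transcript alone, and leaving out each sample.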

Additional observations from a re-analysis of the deposited data

Results flagged for a closer look

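PLIN2 with A9 lay below DMSO in MOLM-13, by a small margin, and above it in MONO-MAC-6. All 3 A9 samples were lower in MOLM-13, by -0.17 ± 0.11 (SE) on the log2(TPM + 1) scale, where the median gene was at -0.05. The closest samples were 9.15 TPM with A9 and 9.31 TPM with DMSO. All 3 A9 samples were higher in MONO-MAC-6, by 1.28. The direction held in each line when any sample was left out, with values from -0.22 to -0.11 in MOLM-13 and from 1.21 to 1.37 in MONO-MAC-6. The difference between the lines was not tested, and dose and line differ together.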

How the results depend on the processing

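The number of genes called in MOLM-13 with A9 was 14, and it was 4 with no filter, 48 with median-ratio scaling, 160 after removal of the length trend and 5439 when averaged by the second number; leaving out 1 sample gave 2 to 8. In MONO-MAC-6 it was 433, and 254, 552, 1165 and 8705 in the same order, with 58 to 3190 when 1 sample was left out; the highest count came without DMSO sample 1 and the lowest without A9 sample 3. Between untreated lines it was 6308, and 11059 when averaged by the second number, which treats libraries of 1 sample as separate. Same-numbered A9 and DMSO samples correlated across genes at 0.361, -0.077 and 0.676 in MOLM-13 and at -0.027, 0.088 and -0.091 in MONO-MAC-6. Pairing by number was therefore not taken as given, and 3 samples per group cannot settle it. With a replicate block 87 and 94 genes were called. At baseline, the 8 calls among the 10 genes passed in every alternative. Their A9 differences moved by less than the spread between samples in 62 of 65 values in MOLM-13 and 122 of 130 in MONO-MAC-6. The sign was kept in all alternatives except for CD36 in MOLM-13, at -0.08, which was 0.10 without DMSO sample 1, 0.07 without A9 sample 3 and 0.23 by its highest transcript alone. With a pseudocount of 0.1, TREM2 was 2.24 (MOLM-13) and 3.15 (MONO-MAC-6); by its highest transcript alone it was 1.17 in MOLM-13. The causes were not tested. The read depth reached in each library is unknown, and it limits most the genes under 1 TPM.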

Other observations

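Genes near the 10 were looked at after the data were seen. Within 100 kb, 23 other genes averaged 1 TPM or more in some group, and 0 of them passed an adjusted p of 0.05 from limma with A9 in either line. At an unadjusted p under 0.05 there were 1 in MOLM-13 and, for MONO-MAC-6, 3, beside 7.89% and 20.4% of all genes tested. Their log2 differences ran from -0.29 to 0.20 in MOLM-13 and from -0.80 to 0.78 in MONO-MAC-6. HCST, which codes for the related adaptor DAP10 and lies 24 bases from TYROBP, was 37.7 TPM with DMSO and 36.6 TPM with A9 in MONO-MAC-6. TOMM40, 2065 bases from APOE, was 161 and 168 TPM, and APOC2, another apolipoprotein of that cluster, was 59.9 and 59.0 TPM.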
